A study of Drosophila melanogaster with 19 samples.

Results

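The mRNAs of 4 factors that process PIWI-interacting RNA (piRNA) precursors, armi, fs(1)Yb, zuc and shu, were followed through every deposited library as RNA bound by the protein Armitage (Armi) and as a source of Piwi-bound small RNA. They were chosen by name from a list of 5 genes, and each was found as 1 of the 12013 transcripts with a symbol in the Myc-Armi table, then traced by its FlyBase transcript. The gene vret, which codes for a Tudor-domain protein of the same pathway, is not analysed here. The cells were ovarian somatic cells (OSC), a Drosophila line of follicle-cell origin that has a Piwi pathway without germ cells.

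In these cells piRNAs are cut from long single-stranded precursors and loaded into Piwi, which then silences transposons in the nucleus. Armi, the product of armi, is an RNA helicase that travels with precursors between Yb bodies and mitochondria. Yb, the product of fs(1)Yb, is a Tudor-domain protein that builds the perinuclear Yb bodies. Zucchini (Zuc) is an endonuclease of the outer mitochondrial membrane that cuts Armi-bound precursors, and Shutdown, the product of shu, is an FKBP-type co-chaperone needed to load Piwi. Some protein-coding mRNAs also enter this route and give genic piRNAs, so that the mRNA of a pathway factor can be read as cargo of the pathway.

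All groups were OSC. The Armi iCLIP groups, in which RNA crosslinked to the protein by UV is recovered after limited RNase T1 digestion, were knockdown (KD) of Yb by RNAi, control KD by RNAi against EGFP, and untreated cells. The Myc-Armi iCLIP groups were cells transfected with Myc-tagged Armi carrying D862A, carrying R949A or wild type (WT), and nothing in the labels says that endogenous Armi was removed from them. CLIPPARE, which ligates an adapter to the 5′ ends of Armi-bound RNA before the RNase step, was done after Zuc KD and after control KD against EGFP. Piwi-bound small RNA was read from a library labelled Yb KD, from control KD and from untreated cells. The labels list 2 libraries for each Armi group and 1 for each Piwi group. The tables give 1 column per condition for the knockdown and Myc-Armi iCLIP, so only untreated Armi iCLIP and both CLIPPARE groups had replicate values, and nothing says that these came from separate cultures. For the Piwi libraries after knockdown, the labels name anti-Myc and the protocol text names anti-Piwi as the antibody. The library titled Yb KD is labelled EGFP RNAi in its genotype field. The Myc-Armi labels list an anti-Myc antibody, while their protocol text names anti-Armi.

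Values are RPM, reads per M (mega) of reads of the library, per FlyBase transcript. The 14 columns stood for 0.813 to 10.4 M reads, of which the tables held 12.8 to 63.8%. The cell type was checked with markers. Follicle and somatic gonad markers summed to 2088 to 6552 RPM over the 14 columns, germline markers to 6.73 to 17.9 RPM and hemocyte markers to 44.3 to 206 RPM. In control KD iCLIP, tj alone gave 4510 of the 4735 RPM of follicle markers, while Fas2 had 14.5 and Fas3 3.55 RPM. The authors class tj as High in piRNA level, so there the check rests largely on 1 gene that is itself a piRNA source. The follicle-list gene Hand was at 0 in all 14 columns and the germline genes nos and osk were at 0 in many of them. Armi signal on an mRNA depends on the amount of the mRNA, on the cells that hold it and on binding per molecule. mRNA levels were not measured, so less mRNA, fewer cells with it and less binding cannot be told apart.

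In untreated cells all 4 mRNAs gave Armi signal, with armi and fs(1)Yb highly covered and shu and zuc thinly covered. The armi mRNA had 148 and 133 RPM, from 1031 and 1187 reads. Signal on fs(1)Yb was 214 and 229 RPM, from 1494 and 2041 reads. The shu mRNA had 10.6 and 6.06 RPM, and the zuc mRNA had 2.15 and 3.48 RPM from only 15 and 31 reads. The transcripts differ in length, so levels were set beside each other per kb of locus, introns included. On that scale fs(1)Yb had 58.0 and 62.0 RPM per kb, armi 29.6 and 26.7, shu 5.83 and 3.33, and zuc 1.91 and 3.08. The order fs(1)Yb, then armi, then shu and zuc held in both libraries, and the ranges of fs(1)Yb, armi and shu did not overlap. The gap between shu and zuc was smaller than that between the shu replicates. In the authors' classes of piRNA level, armi is High, fs(1)Yb is Middle, and zuc and shu are Low. The armi locus lies on chromosome arm 3L, fs(1)Yb on X, zuc on 2L and shu on 2R. The locus positions in the tables follow an assembly that they do not name, so no coordinates are given.

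The replicate spread bounds what the single columns can show. Between the untreated Armi libraries, replicate 1 over replicate 2, the ratio was 1.11 for armi, 0.936 for fs(1)Yb (95% interval 0.875 to 1.00), 0.619 for zuc (0.310 to 1.18) and 1.75 for shu (1.22 to 2.54). Intervals are exact conditional binomial intervals on recovered reads and cover counting error only, since reads made by PCR are not independent molecules. The shu mRNA therefore differed between replicates of the same condition by more than counting error.

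**Figure D1:**
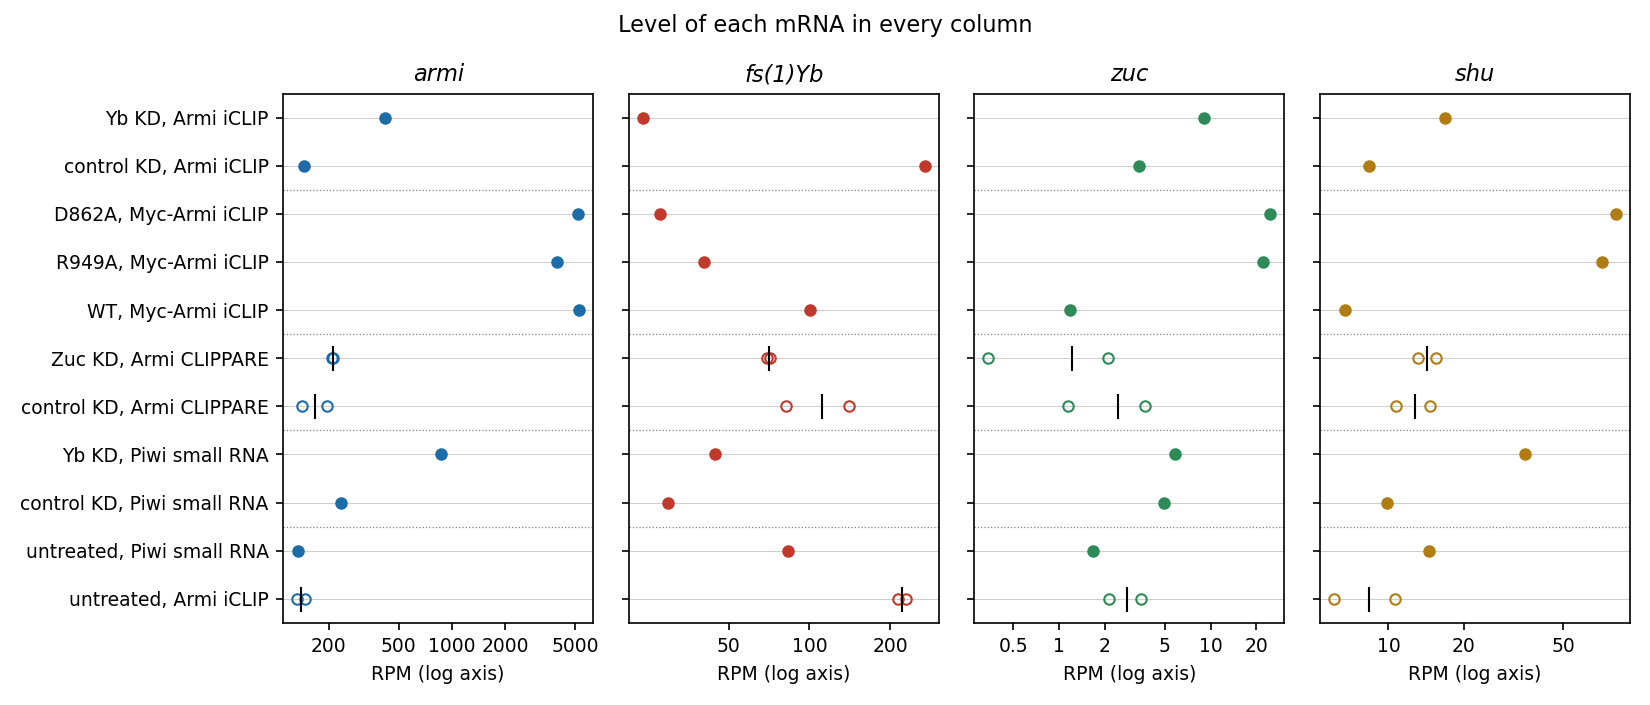
RPM on a log axis of the armi, fs(1)Yb, zuc and shu mRNAs in every column, 1 row per condition, with open circles for replicate libraries, a bar at their mean and filled circles for single columns. The fs(1)Yb mRNA sits at 23.8 RPM in Yb KD iCLIP against 269 RPM in control KD iCLIP, and the armi mRNA of the Myc-Armi columns includes the transfected construct.

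Piwi-bound reads of the same mRNAs in untreated cells kept armi and fs(1)Yb high. The armi mRNA gave 135 RPM in the Piwi library, against 148 and 133 RPM in Armi iCLIP. For fs(1)Yb the Piwi library gave 83.2 RPM, against 214 and 229 RPM in Armi iCLIP, which is 2.66-fold lower (2.27 to 3.17) than their mean. The shu mRNA gave 14.5 RPM in Piwi from 26 reads, against 10.6 and 6.06 RPM in Armi, and zuc gave 1.68 RPM from 3 reads, against 2.15 and 3.48 RPM. Per kb of locus, the Piwi library had 27.0 RPM for armi, 22.5 for fs(1)Yb, 7.98 for shu and 1.49 for zuc, so that fs(1)Yb did not lead there as it did in Armi iCLIP. The median transcript was 1.58-fold lower in Piwi than in Armi. Relative to it, armi was higher by 0.60 on the log2 scale, fs(1)Yb lower (−0.74), and shu higher by 1.40. With 2-fold relative to the table median as the bound, 18.5% of 3189 transcripts were higher and 17.3% lower, and of the 3 members that passed the filter on low values, shu was higher and none lower. The filter was a mean of at least 5 RPM, and zuc did not pass it. With 1 Piwi library no test was run, and the shu replicates differed by 1.75-fold, so the shu ratio of 1.74 (1.13 to 2.76) was no larger than the spread between its Armi libraries.

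The Yb KD iCLIP columns ask what Armi binds when Yb is depleted, and here the transcript of the targeted gene stood apart from the other 3. The fs(1)Yb mRNA had 23.8 RPM in Yb KD, from 106 reads, against 269 RPM in control KD, from 2809 reads. It was 11.3-fold lower (9.30 to 13.8) in a table whose median transcript was 2.99-fold higher. Its log2 ratio relative to that median was −5.03, the 4th lowest of 4039 transcripts. Untreated cells, at 214 and 229 RPM, lay on the side of the control KD. Control KD over untreated was 1.26 (1.18 to 1.34) and 1.18 (1.11 to 1.25) against replicates 1 and 2.

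The other 3 mRNAs had more RPM in Yb KD, higher by no more than the median transcript did. The armi mRNA had 417 RPM in Yb KD from 1853 reads, against 144 RPM in control KD from 1504 reads, which is 2.89-fold higher (2.70 to 3.10). Relative to the table median its log2 ratio was −0.057. The zuc mRNA had 9.0 RPM in Yb KD and 3.36 RPM in control KD, 2.68-fold higher (1.66 to 4.35) and −0.38 relative to the median. It passed the filter only through the Yb KD column. The shu mRNA had 16.9 RPM in Yb KD and 8.34 RPM in control KD, 2.02-fold higher (1.46 to 2.79) and −0.65 relative to the median. Thus 1 of the 4 members, the targeted fs(1)Yb, was at least 2-fold lower relative to the table median and none was higher, where 19.8% of all transcripts were lower and 9.51% higher. The table held 34.2% of the reads in Yb KD and 20.5% in control KD, and summed follicle markers were at 2578 RPM in Yb KD, against 4735 RPM in control KD. Among them tj was 3.85-fold lower (3.74 to 3.97; −3.53 relative to the median), Fas2 lower (−2.38) and zfh1 higher (1.39). Summed hemocyte markers were at 91.1 RPM in Yb KD, against 57.8 RPM in control KD, and summed germline markers at 9.22 and 13.9 RPM in the same columns. The part of these differences in the values of the members was not tested.

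Expressed relative to the median transcript of its own column, armi held a near constant place in Armi-bound RNA. That median was taken over the 4349 transcripts that averaged 5 RPM or more over all 14 columns. The 8 columns of endogenous Armi span Yb KD, Zuc KD, both control KDs and untreated cells, and both iCLIP and CLIPPARE. In them armi lay 3.70 to 3.91 above the column median on the log2 scale. The range was 0.20, where the 1732 transcripts that averaged 20 RPM or more in these columns had a median range of 1.38, and 1 of them had a smaller range than armi. For fs(1)Yb the range was 4.89 over the same columns, and 5 of the 1732 had a larger one. Its lowest column was Yb KD iCLIP (−0.29), where fs(1)Yb itself was the target. The lowest of its other endogenous Armi columns was a Zuc KD library, at 2.30. The range was chosen as a measure after the armi values were seen, and the columns include replicates of a condition. Transcripts with fewer reads than armi carry more counting error in their range. In Piwi small RNA, armi lay 4.14 to 4.36 above the column median.

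**Figure D2:**
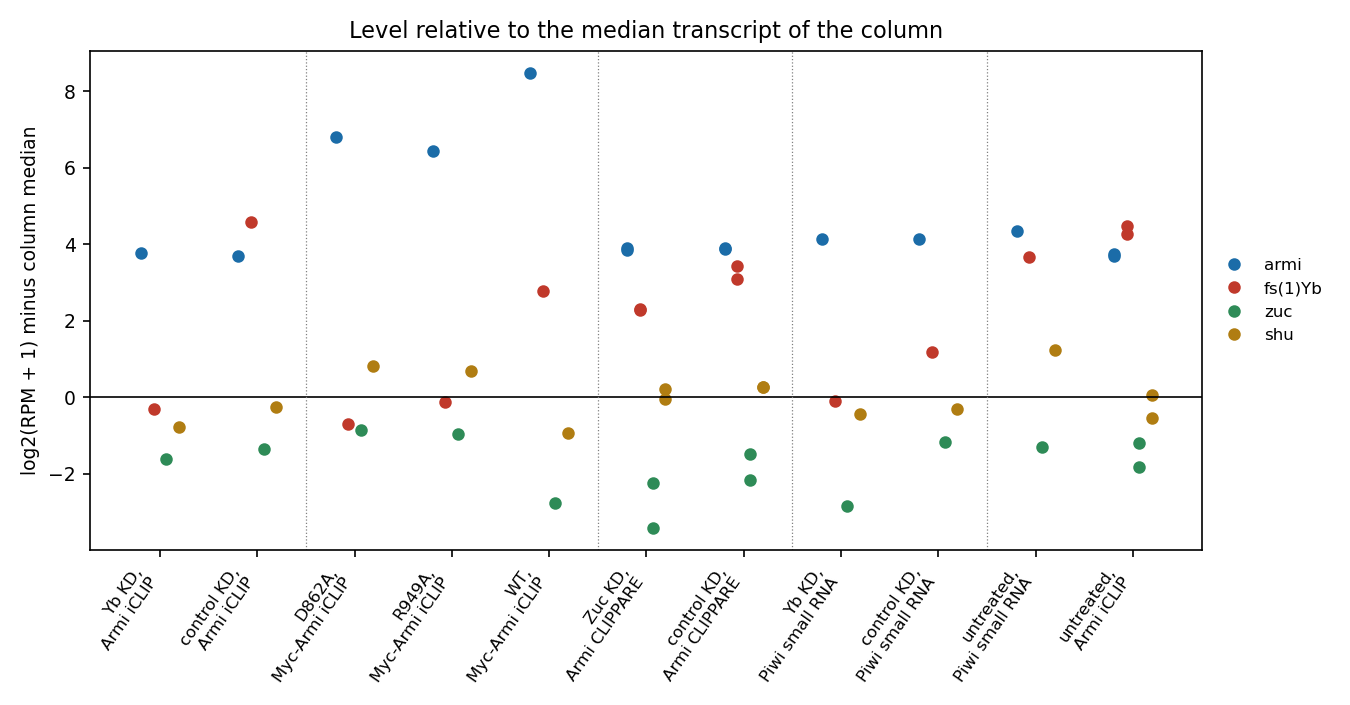
Log2(RPM + 1) of each mRNA minus the median of its column (vertical axis) by condition, 1 point per column. The median is that of the 4349 transcripts that averaged 5 RPM or more over all columns. In endogenous Armi columns armi stays between 3.70 and 3.91, fs(1)Yb spans −0.29 in Yb KD iCLIP to 4.60 in control KD iCLIP, and zuc lies below 0 in all 14 columns.

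On the same scale the order of conditions differed between members. For fs(1)Yb the highest were control KD iCLIP (4.60) and untreated Armi iCLIP (4.38 ± 0.14, SD, n = 2), which were within 2 SD of each other. Untreated Piwi (3.68), control KD CLIPPARE (3.26 ± 0.24, SD, n = 2), WT Myc-Armi (2.78) and Zuc KD CLIPPARE (2.31 ± 0.01, SD, n = 2) came next. Control KD Piwi lay at 1.20. The Piwi library labelled Yb KD (−0.11), R949A (−0.13), Yb KD iCLIP (−0.29) and D862A (−0.69) were below the column median. Among all 12013 transcripts, fs(1)Yb was still above 81.0, 80.9, 79.5 and 76.7% in these columns, in the same order. For shu the highest were untreated Piwi (1.24), D862A (0.83) and R949A (0.69), and the lowest were Yb KD iCLIP (−0.77) and WT Myc-Armi (−0.94). For zuc all 14 columns lay below the column median, from −0.85 in D862A down to −3.40 in a Zuc KD library. Among all 12013 transcripts zuc was above 75.3% in D862A and above 42.6% in that Zuc KD library. No column gave more than 24.7 RPM of zuc, and outside the mutants it rested on 2 to 40 reads, so its neighbours in this order are not separated.

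Piwi-bound small RNA was also read from the library labelled Yb KD, beside control KD. There the armi mRNA gave 866 RPM from 739 reads, against 234 RPM in control KD from 190 reads, 3.70-fold higher (3.15 to 4.37). The table median was 4.01-fold higher, and armi lay at −0.12 relative to it. Reads of fs(1)Yb were at 44.5 RPM, from 38 reads, in the library labelled Yb KD, against 29.5 RPM from 24 reads in control KD, a ratio of 1.51 (0.881 to 2.63) that counting error does not separate from 1, and −1.43 relative to the median. Small RNA reads of the targeted gene were therefore not lower as deposited in the library labelled Yb KD, whose genotype label names EGFP RNAi.

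The shu and zuc mRNAs rested on few Piwi-bound reads. The shu mRNA gave 35.2 RPM in the library labelled Yb KD and 9.84 RPM in control KD, 3.57-fold higher (1.60 to 9.02) and −0.27 relative to the median. The zuc mRNA gave 5.86 RPM in the library labelled Yb KD and 4.92 RPM in control KD, from 5 and 4 reads, and counting error alone spans 0.256 to 6.0 for its ratio. Of the 4 members, fs(1)Yb and zuc were at least 2-fold lower relative to the table median and none was higher, where 18.2% of 4924 transcripts were lower and 12.5% higher. The zuc mRNA passed the filter only through the library labelled Yb KD. The table held 54.7% of the reads there and 18.6% in control KD. Summed hemocyte markers were at 206 RPM there, against 73.8 RPM in control KD. The sum of follicle markers was 5002 RPM there, against 4700 RPM in control KD. Of the 5 follicle markers that passed the filter, 2 were lower relative to the median, tj (−2.85) and Fas2 (−2.07), and 3 were neither. As deposited, tj was at 2402 RPM there, against 4303 RPM in control KD, and zfh1 at 1661 RPM there, against 224 RPM in control KD. The part of these differences was not tested.

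Control KD and untreated cells also differed in Piwi-bound reads. For fs(1)Yb the control KD library gave 29.5 RPM, against 83.2 RPM in the untreated one, 2.82-fold lower (1.82 to 4.54). For armi the control KD library gave 234 RPM, against 135 RPM in the untreated one, 1.74-fold higher (1.43 to 2.11). These are 1 library each, from different tables. In Armi iCLIP fs(1)Yb was 1.26 and 1.18 times as high in control KD as in the untreated libraries, so there it was not lower in control KD. The place of fs(1)Yb in Piwi minus its place in Armi, each relative to its column median on the log2 scale, was 0.19 for Yb KD, −3.40 for control KD and −0.71 for untreated cells. For armi the same difference was 0.37, 0.44 and 0.64.

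The Myc-Armi columns ask how the substitutions D862A and R949A change what Armi binds. The armi mRNA reads here include the transfected construct. They were 5157 RPM in D862A, 3951 RPM in R949A and 5235 RPM in WT, against 133 to 417 RPM in the endogenous Armi columns, and no ratio of armi between these columns is read as binding. The other 3 members split. Signal on fs(1)Yb was 27.7 RPM in D862A from 174 reads and 40.2 RPM in R949A from 229 reads, against 100.2 RPM in WT from 255 reads. It was 3.61-fold lower (2.97 to 4.41) in D862A and 2.49-fold lower (2.08 to 2.99) in R949A, while the median transcript was 3.31-fold and 3.19-fold higher.

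The shu and zuc mRNAs had more signal in both mutants than the median shift. The shu mRNA had 81.0 RPM in D862A from 508 reads and 71.6 RPM in R949A from 408 reads, against 6.68 RPM in WT from 17 reads. It was 12.1-fold higher (7.49 to 21.0) in D862A and 10.7-fold higher (6.61 to 18.6) in R949A. The zuc mRNA had 24.7 RPM in D862A from 155 reads and 22.3 RPM in R949A from 127 reads, against 1.18 RPM in WT from 3 reads, with ratios of 21.0 (7.04 to 103) and 18.9 (6.32 to 92.9). It passed the filter only through the mutant columns.

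Relative to the table median, the log2 ratios over WT in D862A and R949A were −3.54 and −2.97 for fs(1)Yb, 1.69 and 1.56 for shu, and 1.83 and 1.74 for zuc. In each mutant 1 member, fs(1)Yb, was at least 2-fold lower and 2, shu and zuc, were higher. The zuc mRNA entered this count only through the mutant columns, so its place there gives no support, which leaves shu alone as higher. In D862A 26.3% of 4585 transcripts were lower and 26.7% higher, and in R949A 25.3% of 4473 were lower and 26.3% higher. Both comparisons use the same WT column, which had the fewest reads of the Armi columns, 2.54 M, so they do not stand for each other. Between the mutants themselves, D862A over R949A, fs(1)Yb was 1.45-fold lower (1.18 to 1.77), zuc 1.11-fold higher (0.871 to 1.41) and shu 1.13-fold higher (0.991 to 1.29). The last 2 ratios were not separated from 1 by counting error. The table held 63.3% of the reads in D862A, 63.8% in R949A and 33.2% in WT. As deposited, summed follicle markers were at 6198 RPM in D862A and 6552 RPM in R949A, against 4469 RPM in WT. Summed hemocyte markers were at 87.2 RPM in D862A and 116 RPM in R949A, against 53.8 RPM in WT. Relative to the table median, the 5 follicle markers that passed the filter had a median of −0.60 in D862A and −0.34 in R949A. In each mutant 1 of them was lower and none higher. The 2 hemocyte markers that passed had a median of −1.08 in D862A and −1.25 in R949A, where 1 was higher and 1 lower. The part of these differences in the ratios was not tested.

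**Figure D3:**
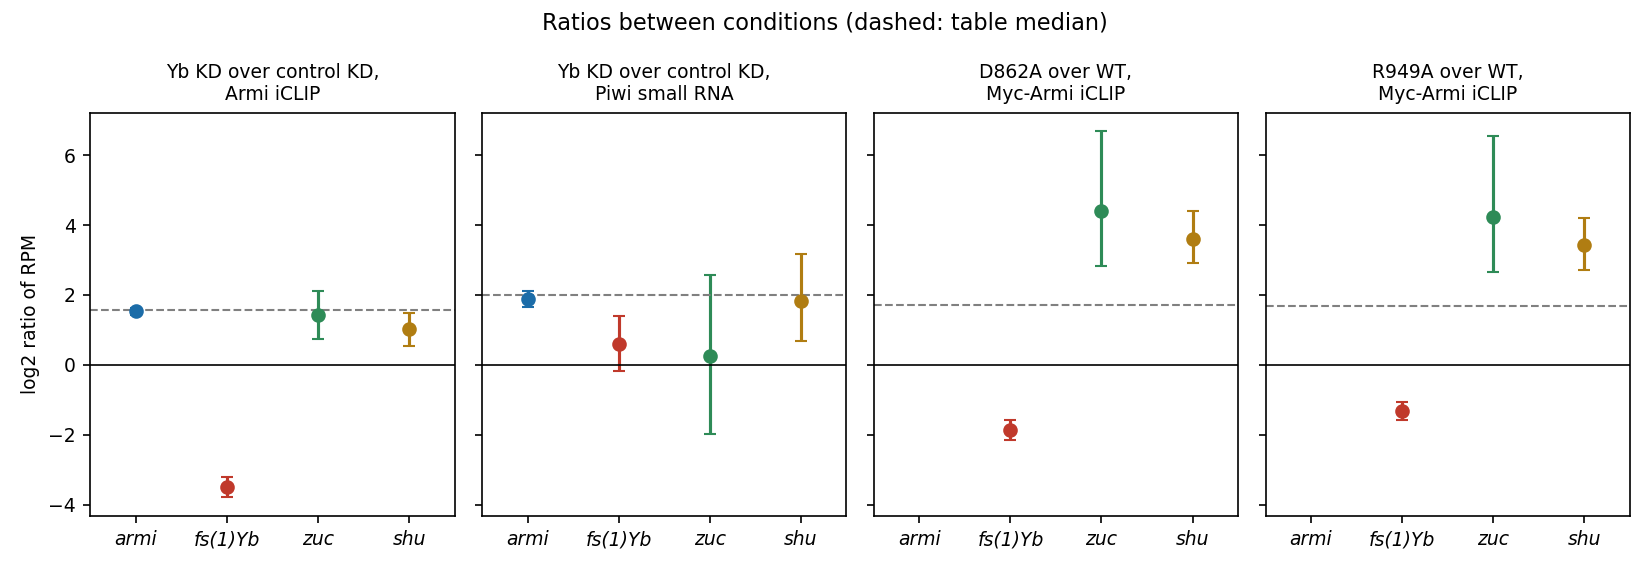
Log2 ratio of RPM as deposited for each mRNA in the 4 comparisons without replicates, with bars for the exact 95% counting interval, a dashed line at the table median and armi left out of the Myc-Armi panels. The fs(1)Yb mRNA lies below the dashed line in all 4 panels, at 11.3-fold lower in Yb KD over control KD iCLIP, and zuc and shu lie above it only in the D862A and R949A panels.

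Zuc KD CLIPPARE was the comparison with replicates in both groups, and reads of the targeted mRNA were too few to check the knockdown. The zuc mRNA had 0.343 and 2.10 RPM in Zuc KD, from 2 and 12 reads, against 1.15 and 3.72 RPM in control KD, from 9 and 20 reads. The groups overlapped, and zuc did not pass the filter. Of 4006 transcripts tested with limma on log2(RPM + 1), 11.8% were called higher and 2.77% lower at an adjusted p of 0.05. None of the 3 members tested was called.

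The armi mRNA had 212 and 210 RPM in Zuc KD, against 142 and 195 RPM in control KD. Both Zuc KD libraries were above both control libraries, and the log2 change of 0.34 (SE 0.400) had an adjusted p of 0.583 by limma. The shu mRNA had 15.4 and 13.1 RPM in Zuc KD, against 10.7 and 14.7 RPM in control KD, with overlap between the groups. Its log2 change of 0.17 (SE 0.331) had an adjusted p of 0.758 by limma. Signal on fs(1)Yb was 69.6 and 71.1 RPM in Zuc KD, against 82.0 and 140 RPM in control KD. Both Zuc KD libraries were below both control libraries, and the log2 change was −0.60 (SE 0.367; adjusted p = 0.255 by limma).

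The call for fs(1)Yb depended on the scale of the libraries. The control KD libraries differed by 0.47 in median log2 value, replicate 2 above replicate 1, and the Zuc KD libraries by 0.04. Within control KD, fs(1)Yb was 1.71-fold higher (1.54 to 1.90) in replicate 2 than in replicate 1. With each library centred on its median, the fs(1)Yb change was −0.94 (SE 0.196; adjusted p = 0.00469 by limma), and edgeR and DESeq2 on recovered reads gave −0.92 (adjusted p = 0.00381) and −0.97 (adjusted p = 0.000854). A fit with 1 library left out took its error from 1 group alone, so only the size of its change is given. With replicate 1 of the control left out, the fs(1)Yb change was −0.99 as deposited and −1.11 centred. When replicate 2 of the control was dropped instead, it was −0.22 as deposited and −0.78 centred. Dropping Zuc KD replicate 1 or 2 gave centred changes of −0.95 and −0.92. In the centred fit of all libraries, armi had a change of 0.01 and shu of −0.17, and neither was called. Without control KD replicate 2 the armi change as deposited was 0.57.

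**Figure D4:**
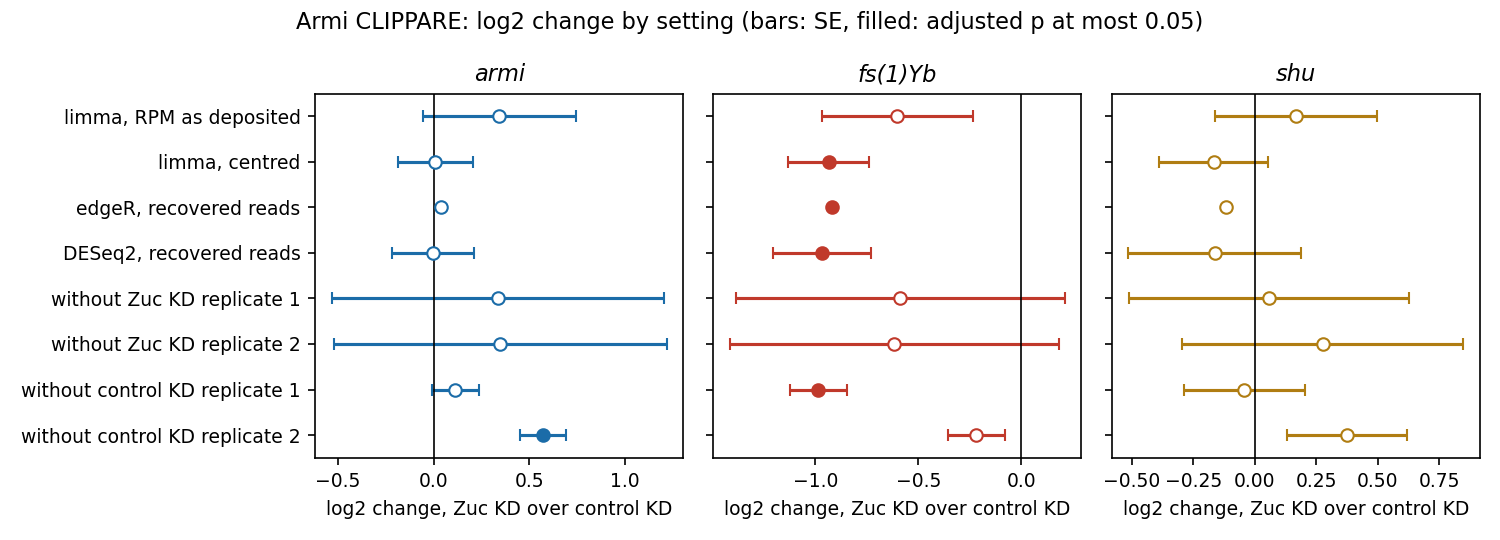
Log2 change of armi, fs(1)Yb and shu in Armi CLIPPARE, Zuc KD over control KD (horizontal axis), under each fit (rows), with bars for the SE where the fit gives one and filled circles for an adjusted p of at most 0.05. The fs(1)Yb change is −0.60 and not called as deposited, and −0.94 and called when each library is centred. Fits without 1 replicate take their error from 1 group alone, so their filled circles are not read as calls.

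Transcripts with the profile most like that of each member were named by Pearson r of log2(RPM + 1) across columns, as a description, with no p. For armi, over the 11 columns without Myc-Armi, they were CG7987 (0.968), ash1 (0.962) and Spn43Aa (0.956). For fs(1)Yb, over all 14 columns, they were plx (0.970), Ac13E (0.967) and CG4199 (0.963). For zuc they were Tim8 (0.849), CG12012 (0.787) and scf (0.785), and for shu they were pav (0.783), FK506-bp1 (0.780) and CG1890 (0.714). Each profile was log2(RPM + 1) less the column median, so the median shift of the whole table was taken out before r was computed. The columns still differ in depth and assay, and they include replicates of a condition. Without the Piwi columns none of the 3 named for each member was among its 3 closest.

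Other genes of the pathway were counted in the same way, by role. Of 9 other somatic processing factors 3 were found, Hen1, Hsp83 and daed. Of 11 genes of nuclear silencing 10 were found, of 6 for transcription and export of the piRNA precursor flam all 6, and of 13 of the germline pathway 11. Nuclear silencing holds piwi itself and its partners. The germline list holds genes such as spn-E and tud, whose transcripts these somatic cells gave as well.

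In Yb KD over control KD iCLIP, all 3 other processing factors lay within 2-fold of the table median (median log2 0.12). Hsp83, the fly Hsp90, had 1733 RPM in Yb KD and 533 RPM in control KD, 0.12 relative to the median. Of 9 nuclear silencing genes 2 were lower and none higher (median 0.01), a share near the 19.8% of all transcripts that were lower, while 9.51% were higher. The piwi mRNA had 391 RPM in Yb KD and 274 RPM in control KD (−1.07 relative to the median), and ctp, a dynein light chain that binds Panoramix, had 226 and 156 RPM in the same columns (−1.05). Of 6 flam genes 1 was higher (median 0.57), the nucleoporin gene Nup58, with 13.5 RPM in Yb KD and 0.863 RPM in control KD, which passed the filter only through the Yb KD column. Of 5 germline genes 2 were lower (median −0.45), namely spn-E, with 303 RPM in Yb KD and 287 RPM in control KD, and tud, with 319 RPM in Yb KD and 222 RPM in control KD. The lowest of the pathway list genes that passed was spn-E at −1.50, against −5.03 for fs(1)Yb.

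In the Piwi libraries, labelled Yb KD over control KD, 3 of 10 nuclear silencing genes were higher and none lower (median 0.23), where 12.5% of all transcripts were higher and 18.2% lower. They included wde, with 98.4 RPM in the library labelled Yb KD and 11.1 RPM in control KD, and the histone demethylase gene Su(var)3-3, with 56.2 RPM there and 3.69 RPM in control KD. Panx, the third, had 24.6 RPM in the library labelled Yb KD and was listed at 0 in control KD. Both other processing factors that passed were neither higher nor lower (list median 0.54). Of 6 flam genes 1, Nup54, was higher at 2.10 (list median 0.64). Of 5 germline genes 1, krimp, was higher at 1.24 (list median −0.10). Panx, Su(var)3-3 and Nup54 passed the filter only through the library labelled Yb KD.

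In the Myc-Armi columns, 4 of 9 nuclear silencing genes were higher and none lower in D862A over WT (median 0.92), and 4 of 8 were higher and none lower in R949A over WT (0.77). Of all transcripts 26.7% were higher and 26.3% lower in D862A, and 26.3% higher and 25.3% lower in R949A. Panx, wde and Su(var)3-3 were among the 4 in both, with egg in D862A and the gene of the heterochromatin protein HP1a in R949A. Panx and egg passed only through the mutant columns, so their place in these counts gives no support to a higher share. Su(var)3-3 had 71.4 RPM in D862A and 74.7 RPM in R949A, against 5.11 RPM in WT. Of 6 germline genes, 4 were lower and 1 higher in D862A (median −1.63), and 3 were lower and 1 higher in R949A (−1.22). AGO3, spn-E and tud were lower and squ higher in both, and squ, with 4.32 RPM in WT, passed the filter only through the mutant columns. The tud mRNA had 229 RPM in D862A and 236 RPM in R949A, against 362 RPM in WT. The flam genes split, with 2 higher and 1 lower of 5 in D862A and 2 higher and 2 lower of 5 in R949A. Nup358, a nucleoporin gene, had 81.6 RPM in D862A and 47.9 RPM in R949A, against 68.8 RPM in WT, and sbr, the mRNA export receptor gene, had 144 and 148 RPM in these mutants, against 11 RPM in WT. Hsp83 had 7095 RPM in D862A and 6288 RPM in R949A, against 1078 RPM in WT, near the bound at 0.99 and 0.87 relative to the median. The other processing factors counted 1 higher (daed) and 1 lower (Hen1) of 3 in D862A and 0 higher and 1 lower (Hen1) of 3 in R949A, and daed, with 1.57 RPM in WT, passed only through the D862A column.

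**Figure D5:**
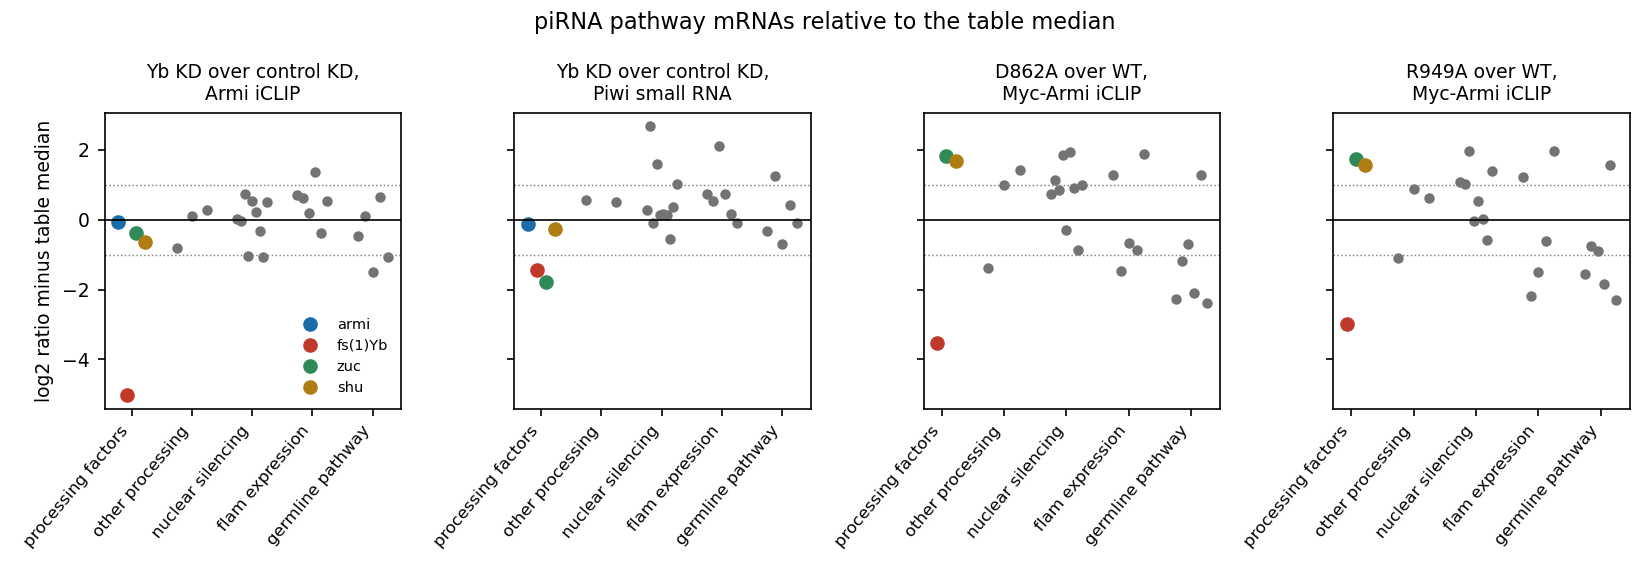
Log2 ratio relative to the table median (vertical axis) of the members (coloured) and of 4 lists of other piRNA pathway genes (grey, 1 point per gene that passed the filter) in the comparisons without replicates, with dotted lines at 2-fold. The lowest point is fs(1)Yb in the Yb KD over control KD iCLIP panel (−5.03) and in the D862A (−3.54) and R949A (−2.97) panels.

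In Zuc KD over control KD CLIPPARE, 2 of 6 flam genes (Hel25E and Nup54) and 1 of 8 nuclear silencing genes (wde) were called higher by limma as deposited, where 11.8% of all transcripts were, and none of the 4 germline genes or of the 1 other processing factor tested was called. Hel25E, an RNA helicase gene of nuclear export, had 34.5 and 35.2 RPM in Zuc KD, against 13.7 and 22.3 RPM in control KD (log2 change 0.95, adjusted p = 0.0356 by limma). With each library centred, 1 flam gene (Hel25E) was called higher, 2 germline genes (spn-E and tud) were called lower, and no nuclear silencing gene was called. On that scale 9.46% of all transcripts were called higher and 14.2% lower. The piwi mRNA had 81.1 and 90.7 RPM in Zuc KD, against 80.4 and 121 RPM in control KD (log2 change −0.20, adjusted p = 0.739 by limma). Follicle and hemocyte markers moved in this comparison as well. The sum of follicle markers was 2151 and 2313 RPM in Zuc KD, against 2088 and 4366 RPM in control KD, and br, Fas2, Fas3 and zfh1 were called higher by limma as deposited, while tj was called lower with each library centred. Summed hemocyte markers were at 56.1 and 48.2 RPM in Zuc KD, against 52.6 and 77.2 RPM in control KD. All 3 hemocyte markers tested were called by limma as deposited, Pxn higher (1.36), srp higher (0.98) and crq lower (−1.12), and centred Pxn and crq were called. Their part in the values of the members was not tested. Genes named here for a count, outside the highest and lowest of each list, were chosen after their values were seen.

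In untreated cells, Piwi over Armi, Hsp83 had 76.0 RPM in the Piwi library and 455 RPM in Armi iCLIP (−1.90 relative to the table median), and sbr had 28.5 RPM in Piwi and 12.5 RPM in Armi (1.79). Hsp83 was the lower 1 of the 2 other processing factors. Of 5 nuclear silencing genes 1 was higher (nxf2) and 2 were lower (mael and ctp; median −0.42), where 18.5% of all transcripts were higher and 17.3% lower, and mael passed only through Armi. Of 4 flam genes 1 was higher (list median −0.18), and none of the 4 germline genes lay beyond 2-fold (list median −0.24). The piwi mRNA had 92.7 RPM in Piwi and 198 RPM in Armi, and like fs(1)Yb (−0.74) lay below the table median, at −0.42, where armi lay above it at 0.60.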

How the data were processed

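The authors deposited RPM, 1 value per FlyBase transcript and column. The submitters' processing notes name cutadapt, STAR and the dm6 build. Tool versions, how reads were counted, the use of strand, the treatment of multi-mapping reads and the removal of PCR duplicates are not given in the sources used here. Within a column all deposited values were whole multiples of 1 step, to within 0.1 of a read, and were turned back into reads. Repeated lines (107) were dropped. Groups were taken from sample titles. The knockdown and Myc-Armi iCLIP have 2 labelled libraries but 1 column per condition, and how that column was made is not stated. The replicate test planned for these was therefore not run.

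Ratios between single columns carry exact conditional binomial intervals at 95% on recovered reads. Log2 ratios used a pseudocount of 1 RPM and transcripts that averaged 5 RPM or more over the columns compared, less the median of these transcripts, and a pseudocount understates the change of low transcripts. A transcript at least 2-fold from that median was counted. Column levels were set against the median of the 4349 transcripts that averaged 5 RPM or more over all columns. Zuc KD CLIPPARE was tested with limma 3.58.1 in R 4.3.3, using lmFit and eBayes with a trend. Calls were two-sided at a Benjamini-Hochberg adjusted p of 0.05. The code was also run on simulated reads that put all libraries on a common scale, so that run does not bear on the offset between the control libraries. As alternatives, the pseudocount was 0.1 or 5 RPM and the filter 20 RPM or absent, libraries were centred, the trend was dropped, the replicate number was a block, each replicate was left out, and edgeR 4.0.16 and DESeq2 1.42.0 were run on recovered reads. All else ran in Python 3.11.15 (scipy 1.17.1, numpy 2.4.6, matplotlib 3.10.9, pandas 2.3.3).

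The members, lists, tests and rules were chosen with earlier results of these data known. Named were the members, the 3 transcripts of highest r with each, and for each list up to 2 highest and 2 lowest genes of a mean of at least 20 RPM. Lists held other somatic processing, nuclear silencing, flam transcription and export, and germline pathway genes, and markers of follicle cells, germline and hemocytes. The correlation of deviations between same-numbered CLIPPARE replicates was 0.0485, which cannot settle whether they were prepared together. The main fit did not pair them.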

Additional observations from a re-analysis of the deposited data

How the results depend on the processing

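Of the alternatives run, the RPM as deposited in place of ratios relative to the table median moved the most values. As deposited, the log2 ratios in Yb KD over control KD iCLIP were 1.52 for armi, −3.44 for fs(1)Yb, 1.20 for zuc and 0.94 for shu. In the Piwi libraries they were 1.88 for armi, 0.58 for fs(1)Yb, 0.21 for zuc and 1.74 for shu, so fs(1)Yb and zuc changed direction. They were −1.82 for fs(1)Yb and 3.42 for shu in D862A over WT, −1.30 and 3.24 in R949A over WT, and −0.061 for armi, −1.40 for fs(1)Yb and 0.73 for shu in Piwi over Armi. As deposited, transcripts at least 2-fold higher and lower numbered 2873 and 206 in Yb KD iCLIP, 4030 and 110 in Piwi, 3101 and 194 in D862A, 3008 and 215 in R949A, and 273 and 1204 in Piwi over Armi, where relative to the median they numbered 384 and 800, 616 and 896, 1224 and 1208, 1176 and 1132, and 591 and 551. The share of higher calls was 93.3, 97.3, 94.1, 93.3 and 18.5% as deposited and 32.4, 40.7, 50.3, 51.0 and 51.8% relative to the median.

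Without a filter, armi was 0.44 and fs(1)Yb −4.53 and shu −0.15 in Yb KD iCLIP, armi 0.15 in Piwi, and fs(1)Yb −2.69 in R949A. Higher and lower counts were then 1274 and 1844 in Yb KD iCLIP and 1205 and 1636 in Piwi, the lower count was 1835 in D862A, and both were 1786 and 1702 in R949A. With 20 RPM the counts were 518 lower in Yb KD iCLIP, 246 and 545 in Piwi, 689 and 616 in D862A, and 678 and 579 in R949A. A pseudocount of 0.1 RPM gave −0.16 for armi in Yb KD iCLIP. For zuc it gave 2.46 in D862A and 2.36 in R949A, where 5 RPM gave 0.87 and 0.77, less than 2-fold. A pseudocount of 5 RPM gave 0.29 for armi and −4.46 for fs(1)Yb in Yb KD iCLIP, 0.29 for armi in Piwi, −3.08 for fs(1)Yb in D862A and −2.59 in R949A, counts higher of 670 in D862A and 658 in R949A, and 337 lower in Piwi over Armi.

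For Zuc KD CLIPPARE, transcripts called higher and lower numbered 471 and 111 by limma, 44 and 1 without a filter, 153 and 58 at 20 RPM, 233 and 436 by DESeq2, 452 and 549 by edgeR and 379 and 570 centred. The share of higher calls was 80.9% as deposited and 39.9% centred. Leaving out 1 replicate gave 14 to 1817 higher and 0 to 871 lower. It gave log2 changes of −0.026 to 0.57 for armi, −1.11 to −0.22 for fs(1)Yb and −0.30 to 0.38 for shu, over both scales. The changes by DESeq2, edgeR and centring were −0.97, −0.92 and −0.94 for fs(1)Yb, and −0.16, −0.12 and −0.17 for shu, which changed direction. The armi change by DESeq2 was −0.00497, which changed direction. The fits that left out replicates on the centred scale were chosen after seeing the data. With the replicate block, 453 were higher and 92 lower, and adjusted p was 0.657 for armi, 0.325 for fs(1)Yb and 0.748 for shu, so the pairing changed no call of a member. The closest profiles without the Piwi columns were Cyp4p1 for armi (0.984), ras for fs(1)Yb (0.988), Vha13 for zuc (0.932) and SelD for shu (0.884). The cause of these changes was not tested. Depth limits zuc most, with 2 to 40 reads in every column but the mutants.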
